A study of Mus musculus with 16 samples.

Results

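The mitochondrial ribosomal protein genes were the 74 protein-coding genes whose symbol begins with Mrpl or Mrps followed by a digit, out of 32826 genes listed in the deposited mouse tables. Of these, 46 carry an Mrpl symbol and 28 an Mrps symbol. By the known place of the protein, 48 belong to the large subunit and 25 to the small subunit, and Mrps36 to neither. By the family name of the protein, 43 are counted as having a bacterial homologue and 30 as specific to mitochondria. The 30 include Mrps18a and Mrps18b, although these are related to bacterial S18. The genes lie on 17 chromosomes, with 11 of them on chromosome 11 (mm10).

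The mitochondrial ribosome translates the few messages of the mitochondrial genome, which encode subunits of the respiratory chain and of ATP synthase. Its RNAs come from the mitochondrial genome, but all its proteins are encoded in the nucleus, made in the cytosol and imported. Its protein genes are dispersed, and their promoters are known for sites of nuclear respiratory factor 1 (NRF1), of ETS-family factors such as GABPA, and of YY1.

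The study asked how newly made RNA changes in mouse E14 embryonic stem cells that lack subunits of the coactivators SAGA and ATAC, which acetylate histones. Newly made RNA was labelled for 15 min with 4-thiouridine (4sU), a uridine analogue, and pulled down on beads. The tested lines were AID-Tada3 (Tada3 belongs to the acetyltransferase module of both complexes), AID-Yeats2 and AID-Zzz3 (subunits of ATAC) and Supt7l-/- (core of SAGA), each as 2 clones. The AID lines carry an auxin-inducible degron on the named protein, and the Supt7l line is a knockout. Each mutant was set against 2 WT lines of the same sequencing project, AID-Tada3 in project 1, AID-Yeats2 and Supt7l-/- in project 2, and AID-Zzz3 in project 3. The WT pair is not a pair of like clones, since replicate 1 is plain E14 and replicate 2 carries Tir1 and BirA, both overexpressed. Mutant and WT cells alike were treated with auxin (IAA) during 24 h, in medium containing serum and LIF together with the inhibitors PD0325901 and CHIR99021. WT 4sU RNA of project 1 was also set against WT total RNA of the same 2 lines. With 2 lines a group, p-values measure only the spread between these lines.

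The 14 4sU libraries held 8268061 to 15994518 mouse gene counts and the 2 total RNA libraries 4903998 to 6378707. The embryonic stem cell markers listed (7 of the 8 chosen) summed to 2400 to 2950 CPM per 4sU library, where CPM is the count relative to the TMM-scaled library total. Markers of fibroblasts (Col1a1, Col1a2, Col3a1 and Thy1) summed to 0.173 to 11.1 CPM, of primitive endoderm to 4.15 to 9.84 CPM and of neural cells to 6.78 to 21.5 CPM. The Supt7l-/- clones had the lowest sums of stem cell markers, 2460 and 2400 CPM, and Tfcp2l1 and Zfp42 of that list fell there. The part of those markers in the results below was not tested. The RNA of the targeted genes was 12.2 and 10.5 CPM for Tada3 in AID-Tada3 cells, against 31.3 and 23.9 in WT, and 8.87 and 14.1 CPM for Supt7l in Supt7l-/- cells, against 13.9 and 14.3 in WT. Yeats2 had 109 and 188 CPM in AID-Yeats2 cells, against 242 and 256 in WT, and Zzz3 had 288 and 300 CPM in AID-Zzz3 cells, against 430 and 448 in WT. A degron acts on the protein, and the deleted part of Supt7l is not given, so these RNA levels do not check the loss.

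Relative to the library total, the summed 4sU RNA of the mitochondrial ribosomal protein genes was 97.6% to 104% of WT in the 4 mutants. Relative to the spike-in it was 70.5% to 93.4% of WT, and the median of all genes tested moved by a similar amount. Under spike-in scaling the median log2 fold change of all genes was -0.5 in AID-Yeats2 cells, beside -0.52 in the members. For the Zzz3 line these medians were -0.36 and -0.33, for the Supt7l line -0.36 and -0.4, and for the Tada3 line -0.16 and -0.12. The lower spike-in sums are thus not read as particular to these genes. Summed over the 74 genes, 4sU RNA was 1971 ± 62.1 CPM in AID-Tada3 cells and 1897 ± 61.4 CPM in WT cells (SD, n = 2 each). The sum was 1925 ± 5 CPM in AID-Yeats2 cells and 1892 ± 35.2 CPM in Supt7l-/- cells, against 1939 ± 19.9 CPM in the WT cells of project 2 (SD, n = 2 each). In AID-Zzz3 cells it was 1901 ± 46.8 CPM, against 1888 ± 26.2 CPM in WT cells (SD, n = 2 each). The mutant clones overlapped their WT libraries in these sums, except that both Supt7l-/- clones (1867 and 1917 CPM) lay below both WT libraries (1925 and 1953 CPM). The exact two-sided permutation p was 0.667 for AID-Tada3, 0.667 for AID-Yeats2, 0.333 for Supt7l-/- and 1 for AID-Zzz3, with n = 2 a group, and 0.333 is the smallest p that this design allows, so the test could not pass a threshold of 0.05. Divided by the spike-in size factor instead, the summed counts were 14500 and 17400 in AID-Yeats2 clones and 13700 and 18200 in Supt7l-/- clones, against 22300 and 22900 (AID-Yeats2 comparison) and 20600 and 21200 (Supt7l-/- comparison) in the same WT libraries, at 70.5% and 76.2% of WT. They were 18400 and 17900 in AID-Zzz3 clones, against 24000 and 22300 in WT, at 78.3% of WT. In these 3 mutants both clones lay below both WT libraries. They were 26600 and 31100 in AID-Tada3 clones, against 32300 and 29500 in WT, at 93.4% of WT, and overlapped. In single genes the 2 libraries of a group also lay close, since the log2 CPM of the 74 genes differed between them with an SD of 0.17 to 0.28.

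Gene by gene, 1 of 73 tested members fell in AID-Yeats2 cells, and no member was called in the other 3 mutants. That member was Mrpl17, which encodes bL17m of the large subunit. Calls are adjusted p under 0.05 by edgeR's quasi-likelihood test, with Benjamini-Hochberg adjustment over all genes tested. By the same rule, 3.32% of all genes fell in AID-Yeats2 cells and 7.24% were called in either direction. All 74 members were tested in AID-Tada3 cells, where 0.0331% of all genes were called. In Supt7l-/- cells 73 members were tested, and 3.33% of all genes were called, 2.02% lower and 1.32% higher. In AID-Zzz3 cells 73 members were tested, and 0.984% of all genes were called, 0.303% lower. The member not tested in projects 2 and 3 was Mrpl41, at low counts. At an unadjusted p under 0.05 edgeR gave 0 members in AID-Tada3, 7 in AID-Yeats2, 1 in Supt7l-/- and 4 in AID-Zzz3 cells, where 8%, 21.3%, 18.3% and 12.9% of all genes passed. DESeq2, at an adjusted p under 0.05, gave only Mrpl17 in AID-Yeats2 cells.

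The median log2 fold change of the members was 0.03 in AID-Tada3, -0.02 in AID-Yeats2, -0.04 in Supt7l-/- and 0.03 in AID-Zzz3 cells, beside a median of 0 over all genes tested in each. The medians of large and small subunit genes were -0.01 and -0.09 in AID-Yeats2 cells, and 0.03 and 0.03 in AID-Zzz3 cells. Genes with a bacterial homologue had a median of -0.01 in AID-Yeats2 cells, and genes specific to mitochondria one of -0.05. For scale, the 74 genes of cytosolic ribosomal proteins had a median of -0.58 in AID-Yeats2 cells with 40 called lower, and of -0.59 in AID-Zzz3 cells with 16 called lower. The difference between the gene families was not tested.

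**Figure D1:**
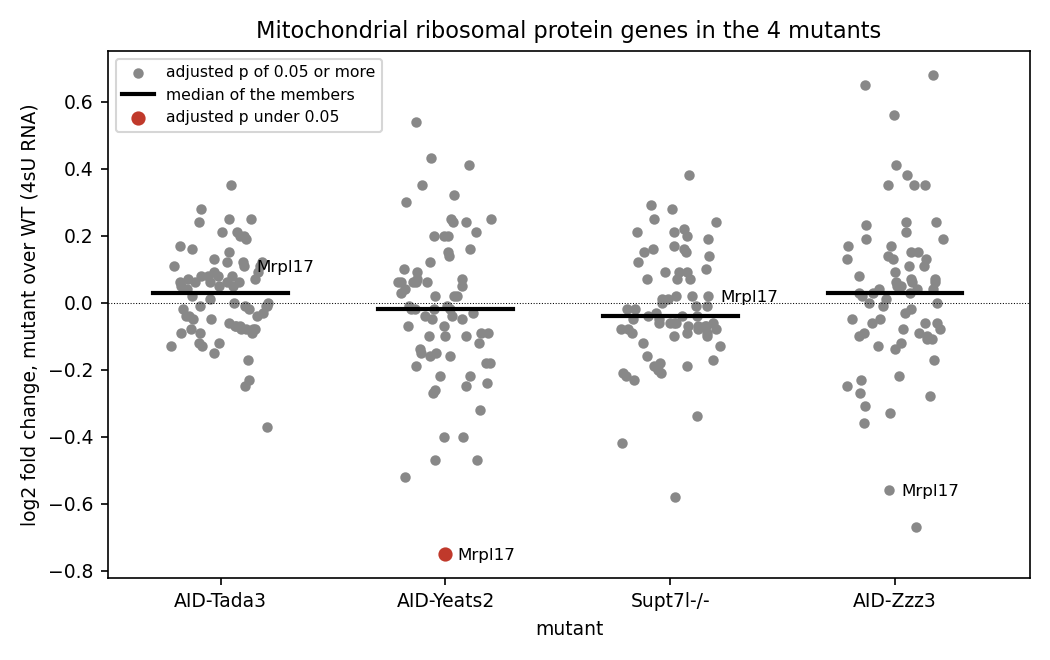
Log2 fold change of 4sU RNA (mutant over WT) for each tested mitochondrial ribosomal protein gene, as points, in the 4 mutants; black lines are medians and the red point is the gene with an adjusted p under 0.05. The medians lie between -0.04 and 0.03, and Mrpl17 is the lowest point in AID-Yeats2 cells at -0.75.

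Mrpl17 (ENSMUSG00000030879) spans 7894 bases on the minus strand of chromosome 7, from 105803206 to 105811099 (mm10), with no exon of another gene over its exons. Its 4sU RNA was 25.6 and 24.1 CPM in the AID-Yeats2 clones, against 39.7 and 43.9 CPM in WT cells. In AID-Zzz3 clones it was 28.5 and 26.5 CPM, against 43 and 37.9 CPM in WT cells. Both clones of each ATAC mutant lay below both of their WT libraries. In AID-Tada3 clones it was 41.8 and 45.1 CPM, against 36.4 and 44.5 CPM in WT cells, and in Supt7l-/- clones 41.6 and 43.2 CPM, against the same WT libraries as AID-Yeats2. In these mutants the groups overlapped.

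The log2 fold change of Mrpl17 was -0.75 ± 0.11 (SE) in AID-Yeats2 cells, with an adjusted p of 0.000786 by edgeR. In AID-Zzz3 cells it was -0.56 ± 0.13 (SE), with an adjusted p of 0.117 by edgeR, so it was not called there. Over the alternatives tried, that adjusted p ranged from 0.00639 with no filter on low counts to 0.405 without the first AID-Zzz3 clone. In the joint edgeR fit of the 14 4sU libraries it was 0.0117, at -0.57. It was 0.11 ± 0.12 (SE) in AID-Tada3 cells and 0.02 ± 0.10 (SE) in Supt7l-/- cells. The authors' deposited table, scaled to the spike-in, gives Mrpl17 a log2 fold change of -1.1 in AID-Yeats2 cells with an adjusted p of 9.86e-06, and of -0.81 in AID-Zzz3 cells with an adjusted p of 0.000356.

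The effects on Mrpl17 were compared directly. AID-Yeats2 cells were lower than Supt7l-/- cells of the same project by a log2 difference of -0.77 ± 0.11 (SE), with an adjusted p of 0.000367 by edgeR. In the joint fit the AID-Tada3 effect exceeded the AID-Yeats2 effect by 0.86 ± 0.17 (SE), with an adjusted p of 0.0143 by edgeR. Against AID-Zzz3, the AID-Tada3 effect was higher by 0.68 (adjusted p 0.0579) and the Supt7l-/- effect by 0.59 (adjusted p 0.101) by edgeR. Neither of these differences from AID-Zzz3 was called. The AID-Yeats2 effect minus the AID-Zzz3 effect was -0.19 ± 0.17 (SE), with an adjusted p of 1 by edgeR, so a difference between the ATAC mutants was not detected.

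Between AID-Yeats2 and Supt7l-/- cells, 4 of 73 members differed, 2 lower and 2 higher in AID-Yeats2, where 16.3% of all genes differed, 7.32% lower and 8.95% higher. Without regard to the test, both AID-Yeats2 clones lay below both Supt7l-/- clones in 15 members and above in 24, where 31.5% and 30.2% of all genes did so. In the same comparison 5 of 7 stem cell markers (Klf2, Klf4, Zfp42, Tfcp2l1 and Esrrb) were higher in AID-Yeats2 cells, at a median log2 difference of 0.30 over the 7, and their part in the members' differences was not tested. Besides Mrpl17, the lower gene was Mrps16, the bS16 homologue of the small subunit, with 6.09 and 6.9 CPM in AID-Yeats2 clones, against 10.1 and 10 CPM in Supt7l-/- clones. Mrpl30, the uL30 homologue of the large subunit, had 21.8 and 21 CPM in AID-Yeats2 clones, against 14.2 and 16.6 CPM in Supt7l-/- clones. Mrpl39, a large subunit protein with no bacterial homologue, had 54.5 and 52.1 CPM in AID-Yeats2 clones, against 40.3 and 42.3 CPM in Supt7l-/- clones. In all 4 genes the clones of the 2 mutants did not overlap. The log2 differences were -0.63 ± 0.19 (SE) for Mrps16, 0.47 ± 0.14 for Mrpl30 and 0.37 ± 0.10 for Mrpl39, with adjusted p of 0.0367, 0.0358 and 0.0173 by edgeR. Of the 4, only Mrpl17 was also called under spike-in scaling and without each of the 4 libraries, and Mrps16 was not called in the joint edgeR fit (adjusted p 0.0706).

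Against WT these 3 genes were not called in any mutant. Mrps16 was 9.57 and 8.44 CPM in the WT libraries of project 2, above the AID-Yeats2 clones and below the Supt7l-/- clones. Mrpl39 was 45.6 and 47 CPM there, below the AID-Yeats2 clones and above the Supt7l-/- clones. Mrpl30 was 19.4 and 22 CPM in the same WT libraries and was -0.42 ± 0.14 (SE) on the log2 scale in Supt7l-/- cells, with an adjusted p of 0.126 by edgeR. In project 3 the same gene had 18 and 18.8 CPM in AID-Zzz3 clones, against 15 and 13.3 CPM in WT cells, a log2 fold change of 0.38 with an adjusted p of 0.38 by edgeR. The Mrpl30 groups did not overlap in either of these comparisons. In the joint fit Mrpl30 had 15.2 and 13.4 CPM in the WT libraries of project 3. It had 19.3 to 21.9 CPM in the WT 4sU libraries of projects 1 and 2, and 18 and 18.9 CPM in AID-Zzz3 clones. No member differed between the AID-Yeats2 and AID-Zzz3 effects in the joint edgeR fit, where 0% of all genes did. There 1 member, Mrpl28, had an unadjusted p under 0.05, at -0.72, where 2.45% of all genes did.

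**Figure D2:**
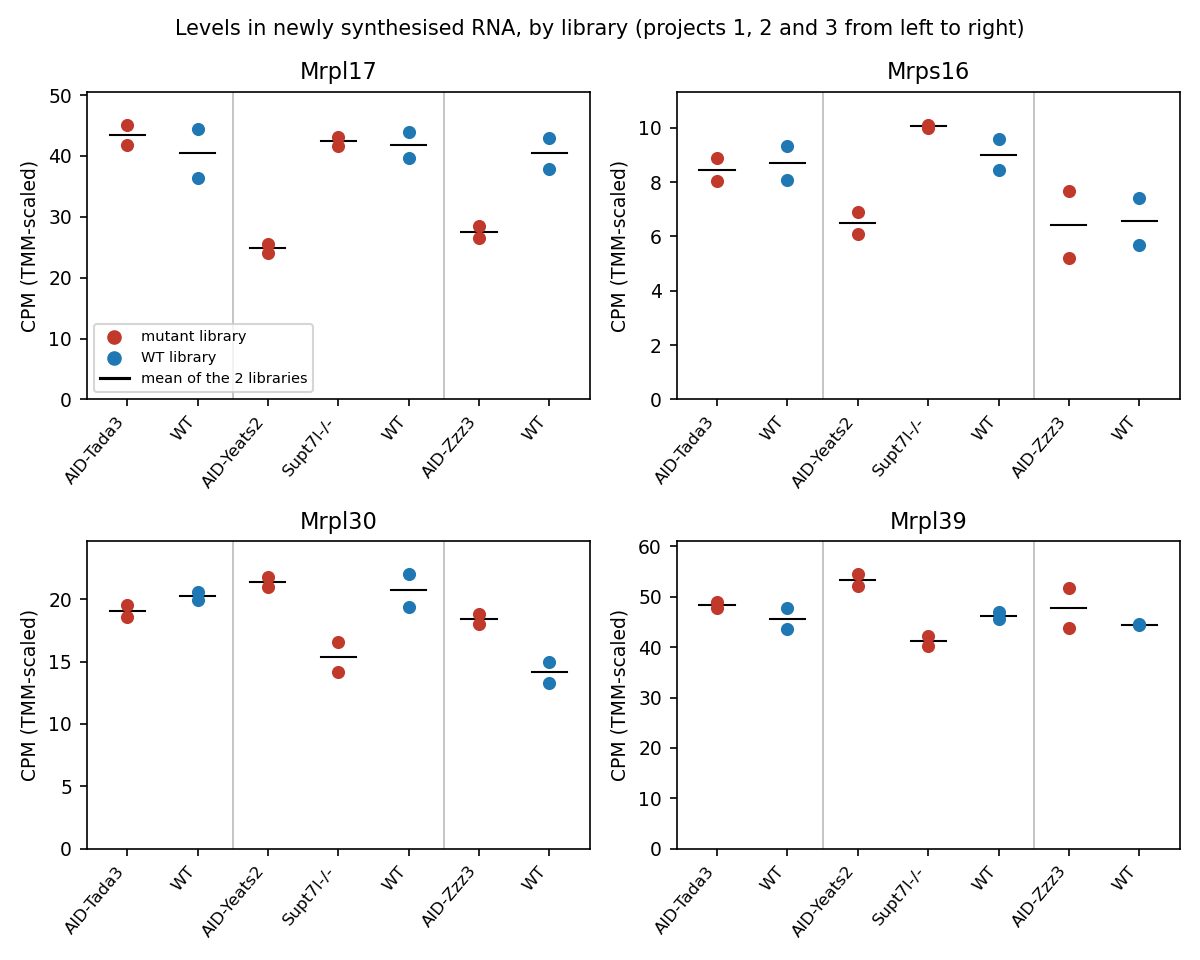
4sU RNA level in CPM of Mrpl17, Mrps16, Mrpl30 and Mrpl39 in each library, mutants in red and WT in blue, with black lines for means of 2 libraries. Mrpl17 lies at 24.1 to 28.5 CPM in the AID-Yeats2 and AID-Zzz3 clones, below every other library, while the other 3 genes differ between AID-Yeats2 and Supt7l-/- clones.

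The promoters of these 4 genes are printed because their 4sU RNA differed between mutants. Of the 74 members, 65 matched a promoter (69 entries) in the RefSeq table for GRCm38.p6, from 250 bases before to 50 bases after the annotated start. Capitals mark matches, on either strand, to the NRF1 motif (GCGCA, any base, then GCGC), the ETS motif CCGGAAG and the YY1 motif AANATGGC. Mrpl17 is chr7:105811038-105811337 on the minus strand, Mrps16 chr14:20393441-20393740 on the minus strand (1 of 2 entries), Mrpl30 chr1:37890227-37890526 on the plus strand, and Mrpl39 chr16:84735195-84735494 on the minus strand.
Mrpl17: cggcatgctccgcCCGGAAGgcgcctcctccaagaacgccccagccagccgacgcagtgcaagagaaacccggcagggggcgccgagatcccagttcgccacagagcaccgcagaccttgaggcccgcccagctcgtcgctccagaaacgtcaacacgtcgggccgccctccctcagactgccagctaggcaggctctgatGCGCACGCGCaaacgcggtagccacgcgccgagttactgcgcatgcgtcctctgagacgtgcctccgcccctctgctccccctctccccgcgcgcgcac
Mrps16: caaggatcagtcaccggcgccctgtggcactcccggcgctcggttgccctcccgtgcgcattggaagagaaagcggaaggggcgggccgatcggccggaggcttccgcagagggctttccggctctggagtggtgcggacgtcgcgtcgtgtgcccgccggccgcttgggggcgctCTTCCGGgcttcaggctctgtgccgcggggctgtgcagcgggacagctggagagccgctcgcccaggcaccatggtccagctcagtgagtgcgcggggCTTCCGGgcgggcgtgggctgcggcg
Mrpl30: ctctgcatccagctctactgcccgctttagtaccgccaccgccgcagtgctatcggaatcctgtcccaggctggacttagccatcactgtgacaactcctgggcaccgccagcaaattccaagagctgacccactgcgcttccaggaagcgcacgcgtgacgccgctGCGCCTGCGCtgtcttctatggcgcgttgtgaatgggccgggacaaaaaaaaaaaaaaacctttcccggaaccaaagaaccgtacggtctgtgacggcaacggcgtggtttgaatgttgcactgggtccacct
Mrpl39: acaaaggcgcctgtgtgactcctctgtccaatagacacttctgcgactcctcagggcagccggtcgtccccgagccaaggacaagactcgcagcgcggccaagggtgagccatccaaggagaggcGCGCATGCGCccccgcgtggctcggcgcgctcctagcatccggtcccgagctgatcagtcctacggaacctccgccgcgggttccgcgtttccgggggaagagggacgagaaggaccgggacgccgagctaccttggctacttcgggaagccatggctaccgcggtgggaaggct
Mrpl17, Mrpl30 and Mrpl39 each hold 1 NRF1 match, whose first base lies at position -49, -83 and -125 from the start. Mrpl17 also holds an ETS match at -237, and Mrps16 holds 2 ETS matches, at -74 and 25. None of the 4 holds a YY1 match. These are letters in a window and not measured binding. Over the 65 members with a promoter, 24 (36.9%) hold the ETS motif, 21 (32.3%) the YY1 motif and 13 (20%) the NRF1 motif. For comparison 27025 genes with a full window were counted, with 1 chromosome, which holds no member, left out. Among them the shares are 9.93%, 6.96% and 5.19%. Among the 10707 of them that were tested in WT 4sU against total RNA they are 19.5%, 9.83% and 11%. Of the 65 members, 13 hold 2 of these 3 kinds of motif, 32 hold 1 kind, 20 hold none, and none holds all 3. The SP motif GGGCGG is in 32 members (49.2%), against 38.2% of the 27025 genes and 67.4% of those tested. TATAAA is in 5 members (7.69%), against 15.7% of the 27025 genes and 8.68% of those tested. Matches of different motifs overlapped in 2 members, Mrpl17 and Mrps16, where an ETS match shares bases with an SP match. The RefSeq starts of Mrpl39, Mrpl17 and the printed entry of Mrps16 lie inside the gene spans of the deposited table. No promoter was matched for Mrps34, Mrpl4, Mrps28, Mrpl38, Mrpl54, Mrps35, Mrpl13, Mrpl19 and Mrpl15.

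Other members are given as values. In AID-Tada3 cells the smallest p belonged to Mrpl35, with 20 and 17.4 CPM, against 15.2 and 15.7 CPM in WT, then Mrpl38, with 18.6 and 18.1 CPM, against 15.1 and 15.6 CPM in WT, and Mrpl3, with 47.1 and 50.3 CPM, against 38.4 and 46.3 CPM in WT. Both clones were above both WT libraries in these genes, at log2 fold changes of 0.28, 0.25 and 0.20 and adjusted p of 0.641 to 0.681 by edgeR. In AID-Yeats2 cells Mrpl51 was 10.2 and 11.4 CPM, against 8.02 and 8.02 CPM in WT, at 0.43 on the log2 scale with an adjusted p of 0.168 by edgeR, and Mrps16 was at -0.47 (adjusted p 0.165). In Supt7l-/- cells Mrpl42 was 38.3 and 41.6 CPM, against 46.5 and 45.3 CPM in WT, and Mrps5 was 42.9 and 44.7 CPM, against 48.4 and 51 CPM in WT. Mrpl28 was 6.7 and 5.81 CPM in AID-Zzz3 cells, against 3.84 and 3.92 CPM in WT, at 0.68 on the log2 scale with an adjusted p of 0.282 by edgeR. Mrpl11 was 9.81 and 8.4 CPM there, against 7.17 and 5.04 CPM in WT (0.56, adjusted p 0.38). In the joint fit Mrpl28 had 3.89 and 3.96 CPM in the WT libraries of project 3. It had 5.2 to 6.28 CPM in the WT 4sU libraries of projects 1 and 2, and 6.73 and 5.84 CPM in AID-Zzz3 clones. These are low levels, and in none of these genes did the adjusted p reach the threshold.

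Members named for their role lay within 0.54 of WT on the log2 scale. Mrpl12, which is known to bind the mitochondrial RNA polymerase, was at 0.15 in AID-Tada3, -0.02 in AID-Yeats2, -0.10 in Supt7l-/- and -0.02 in AID-Zzz3 cells. Mrps30, a large subunit protein despite its symbol, was at 0.16, 0.06, 0.10 and 0.08 in these mutants in turn. Mrps36, now known as a subunit of the 2-oxoglutarate dehydrogenase complex, was at 0.35, 0.54, 0.14 and 0.06. Its values in AID-Tada3 and AID-Yeats2 cells were the highest of any member there. In AID-Yeats2 clones Mrps36 had 8.36 and 7.82 CPM, against 4.83 and 6.31 CPM in WT. The 3 paralogues related to bacterial S18 take separate places in the ribosome, Mrps18a in the large subunit and the others in the small one. Mrps18a was at -0.01, -0.07, -0.04 and 0.24, Mrps18b at -0.04, -0.16, -0.08 and -0.14, and Mrps18c at -0.12, 0.35, 0.01 and 0.21. None of these values had an adjusted p under 0.05 by edgeR. Mrps11 and Mrpl46, which share a divergent promoter region on chromosome 7, were at -0.18 and 0.41 in AID-Yeats2 cells and at -0.07 and 0.28 in Supt7l-/- cells, with no call. Their exons overlap on opposite strands, and the strand setting of counting is not given.

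Members whose clones and WT libraries did not overlap were counted beside all genes. In AID-Yeats2 cells both clones lay below both WT libraries in 15 of 73 members and above in 16, where 25.8% and 25.3% of all genes did so. The counts were 8 below and 17 above of 74 members in AID-Tada3 cells (20.3% and 19.3% of all genes), 15 and 12 of 73 in Supt7l-/- cells (24.4% and 24% of all genes), and 16 and 16 of 73 in AID-Zzz3 cells (21.9% and 22.8% of all genes).

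Scaled to the labelled spike-in cells, the median log2 fold change over all genes tested was -0.16 in AID-Tada3, -0.50 in AID-Yeats2, -0.36 in Supt7l-/- and -0.36 in AID-Zzz3 cells. The medians of the members were -0.12, -0.52, -0.40 and -0.33 in the same order. On this scale 14 members were called lower in AID-Yeats2 cells and 12 in AID-Zzz3 cells, where 22.4% and 24.4% of all genes were, and none was called higher. In the Tada3 and Supt7l mutants the count was 0, where 1.4% and 4.42% of all genes were called lower. Mrpl17 was at -1.25 in AID-Yeats2 cells and at -0.93 in AID-Zzz3 cells on this scale, with adjusted p of 0.000109 and 0.0132 by edgeR. The authors' deposited table calls 20 members lower in AID-Yeats2 cells and 9 in AID-Zzz3 cells, and none in AID-Tada3 or Supt7l-/- cells. Of the genes with an adjusted p in that table, these are 20 of 61 members (32.8%) in AID-Yeats2 and 9 of 50 (18%) in AID-Zzz3 cells, beside 48.9% and 35.7% of all such genes. In AID-Tada3 and Supt7l-/- cells the authors' deposited table calls 0.0559% and 8.86% of all such genes lower.

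Genes that serve mitochondrial translation alongside the ribosome were counted over lists chosen with earlier results known, beside 3.32% of all genes lower in AID-Yeats2 cells and 2.02% in Supt7l-/- cells. Nothing particular to a list is read from a single call. In AID-Yeats2 cells 1 of 24 tested assembly factors fell, Gtpbp10, a GTPase of large subunit assembly, with 26.9 ± 1.56 CPM, against 37.8 ± 2.12 CPM in WT (SD, n = 2 each; adjusted p 0.0163 by edgeR). Of 14 genes of mitochondrial DNA expression 1 fell, Mgme1, an exonuclease of mitochondrial DNA, at a log2 fold change of -0.42 (adjusted p 0.0359 by edgeR). Of 10 nuclear regulators 1 fell, Nrf1 itself, at -0.24 ± 0.06 (SE; adjusted p 0.0282 by edgeR), with 487 ± 17.4 CPM in AID-Yeats2 cells and 574 ± 2.26 CPM in WT cells (SD, n = 2 each). None of 16 mitochondrial aminoacyl-tRNA synthetases, 11 translation factors or 5 ribosomal proteins with other symbols was called there. In Supt7l-/- cells 1 of those 5 fell, Ptcd3, a small subunit protein also called mS39, at -0.29 (adjusted p 0.0454 by edgeR). No gene of these 6 lists was called in AID-Tada3 or AID-Zzz3 cells. Between AID-Yeats2 and Supt7l-/- cells, Gfm2, which acts in recycling of the mitochondrial ribosome, was lower in AID-Yeats2 (-0.31), and the regulators Hcfc1 (0.27), Esrrb (0.20, also a stem cell marker) and Esrra (0.68) were higher, with adjusted p of 0.0252 to 0.0401 by edgeR.

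The large contrast of these genes was between RNA kinds. In WT cells the members took 0.186% and 0.192% of mouse gene counts in 4sU RNA, against 0.41% and 0.464% in total RNA. Their sum was 1958 ± 84 CPM in 4sU RNA and 4232 ± 454 CPM in total RNA (SD, n = 2 each), with an exact two-sided permutation p of 0.333, the smallest possible. By edgeR 59 of 74 members were lower in 4sU RNA and 6 higher, where 33% of all genes were lower and 30.4% higher, 63.4% in all. Both 4sU libraries lay below both total RNA libraries in 62 members and above in 8, where 41.1% and 41.7% of all genes did so. The median log2 fold change, 4sU RNA over total RNA, was -1.64 in members and 0.05 over all genes tested. Ribosomal RNA was depleted from total RNA but not from 4sU RNA before sequencing, and 4sU RNA was fragmented before purification, so library preparation and RNA kind cannot be told apart. A share of 4sU RNA is neither a synthesis rate nor a half-life.

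The 5 lowest ratios belonged to genes of the large subunit, which holds 48 of the 74 members. The next was that of Mrps12 of the small subunit, at -3.47. Mrpl34 (bL34m) had 1.16 and 1.42 CPM in 4sU RNA, against 28.4 and 33.6 CPM in total RNA, a log2 fold change of -4.58 ± 0.26 (SE). Mrpl28 (bL28m) had 6.46 and 5.41 CPM in 4sU RNA, against 129 and 107 CPM in total RNA, at -4.31 ± 0.19 (SE). Mrpl41, Mrpl36 and Mrpl43 followed at -3.75, -3.59 and -3.55, and the adjusted p of these 5 genes was 1.15e-05 to 4.7e-05 by edgeR. In each of them both 4sU libraries lay far below both total RNA libraries. Mrpl36 shares exon sequence with Ndufs6 and Mrpl43 with Twnk, each on the opposite strand, and whether counting used strand is not given in the sources used here.

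The 6 members higher in 4sU RNA were Mrps36, Mrps28, Mrpl48, Mrps33, Mrps27 and Mrpl1. Mrps28 (bS1m) had 228 and 245 CPM in 4sU RNA, against 87.1 and 84.1 CPM in total RNA, at 1.47 ± 0.14 (SE; adjusted p 9.69e-05 by edgeR). Mrpl48 had 32.3 and 36.8 CPM in 4sU RNA, against 12.3 and 16.6 CPM in total RNA, at 1.25 ± 0.21, and shares exon sequence with Rab6a on the opposite strand. Mrps27, a pentatricopeptide repeat protein, had 130 and 148 CPM in 4sU RNA, against 80.7 and 89 CPM in total RNA, at 0.71 ± 0.15, and Mrpl1 (uL1m) was at 0.68 ± 0.14. All libraries of 4sU RNA were above those of total RNA in these genes. Mrps36 had the highest ratio, 2.41 ± 0.40 (SE; adjusted p 0.00136 by edgeR), with 5.62 and 7.33 CPM in 4sU RNA, against 1.36 and 1.08 CPM in total RNA, where the level rests on 7 counts in each library. Mrps33 was at 0.86 ± 0.28 (adjusted p 0.0282 by edgeR), and that call was lost with DESeq2 (0.0823) and without 3 of the 4 libraries in turn (0.0568 to 0.207). Among the genes of fixed interest, Mrps18c was at -2.11, Mrpl12 at -1.12, Mrps30 at -0.73, Mrps18b at -0.40 (adjusted p 0.045) and Mrps18a at -0.38 (adjusted p 0.0615, and 0.0256 in the edgeR fit with the cell line as a block).

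**Figure D3:**
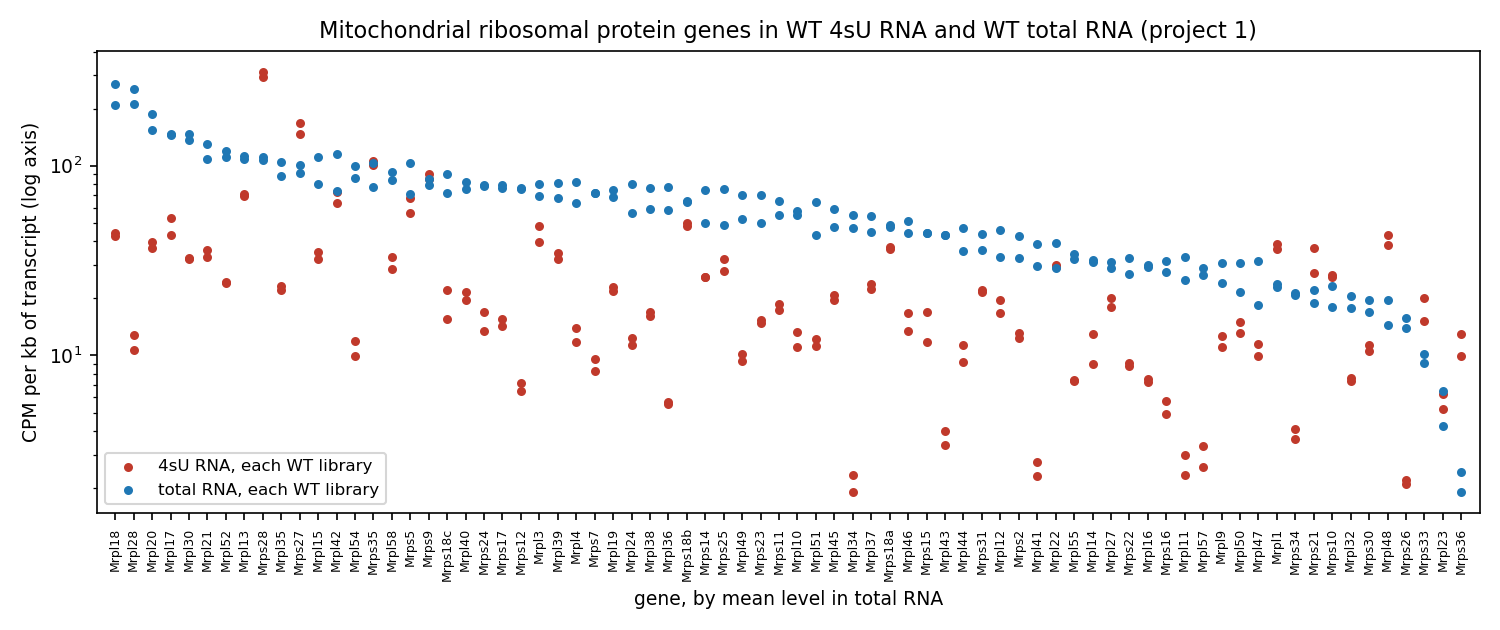
CPM per kb of transcript, on a log axis, of the 74 mitochondrial ribosomal protein genes in each WT 4sU library (red) and each WT total RNA library (blue) of project 1, ordered by the mean level in total RNA. Most red points lie below the blue ones of the same gene, while the red points of Mrps28 (rank 9 in total RNA), Mrps27 (rank 11) and Mrps36 (rank 74) stand above the blue ones.

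Per kb of transcript the members' order differed between RNA kinds. In total RNA the highest were Mrpl18, with means of 43.4 CPM per kb in 4sU RNA and 239 in total RNA, and Mrpl28, with 11.7 in 4sU RNA and 233 in total RNA. Mrpl18 shares exon sequence with Tcp1 on the opposite strand, and the strand setting of counting is not given. In 4sU RNA of the 6 WT libraries, scaled together across the separately made projects, the highest were Mrps28, at 284 to 360 CPM per kb (median 337), Mrps27, at 142 to 172 (median 162), and Mrps35, at 98.1 to 106 (median 103). The ranges of these 3 did not overlap each other, while that of Mrps35 overlapped the 82.5 to 101 of Mrps9, the next gene. The lowest were Mrps26, at 1.49 to 2.74 CPM per kb (median 1.86), Mrpl34, at 0.466 to 3.17 (median 1.72), and Mrpl41, at 0.588 to 2.67 (median 1.46), whose ranges overlapped. In the WT libraries of project 1 alone, Mrpl28 was rank 50 of 74 in 4sU RNA and rank 2 in total RNA. Mrps36 was rank 52 in 4sU RNA and rank 74 in total RNA there.

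The ratio was higher in genes of longer span, where span is the distance between the first and last base of a gene on the genome, introns included. Members ran from 789 bases (Mrpl34) to 121773 bases (Mrps28), with a median of 7899.5. Under 5 kb all 24 members were lower in 4sU RNA, at a median log2 fold change of -2.59, beside 78.7% of 1206 protein-coding genes of that span, with a median of -2.23. From 5 to 10 kb the medians were -1.62 in 27 members and -1.52 in all such genes, and from 10 to 20 kb -1.19 in 14 members and -0.81 in all such genes. At 20 kb or more 2 of 9 members were lower and 4 higher, at a median of 0.19. Of 7618 protein-coding genes of that span 1164 (15.3%) were lower and 3425 higher, at a median of 0.57. Spearman's rho between span and the log2 fold change was 0.775 across the 74 members (Pearson's r with log span 0.768) and 0.72 across 12749 protein-coding genes. With transcript length rho was 0.00435 across the members. These are descriptions across genes of the same 4 libraries, and genes are not independent replicates.

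A line through all protein-coding genes tested rose by 0.549 per doubling of span. Of the 74 members 53 lay below it, with a median deviation of -0.49 over all members. The share of all protein-coding genes below the line was not counted. At 7813 bases the line lay at -1.2, the value of Mrpl9, while protein-coding genes of 5 to 10 kb had a median of -1.52. Lying below the line is thus not read as particular to the members. Mrpl28 lay furthest below, by -2.37, followed by Mrpl11 (-1.83) and Mrpl36 (-1.78). Mrps36 lay furthest above, by 3.53, followed by Mrps33 (1.94) and Mrps21 (1.74), which had 7 to 62 counts per total RNA library. The median log2 fold change was -1.73 in 48 large subunit genes and -1.57 in 25 small subunit genes, and -1.68 in genes with a bacterial homologue and -1.59 in genes specific to mitochondria. The 32 members with a protein-coding gene starting in the opposite direction within 1000 bases had a median of -1.86, and the other 42 one of -1.55. Members with no exon shared with another gene, 44 in all, had a median of -1.59.

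**Figure D4:**
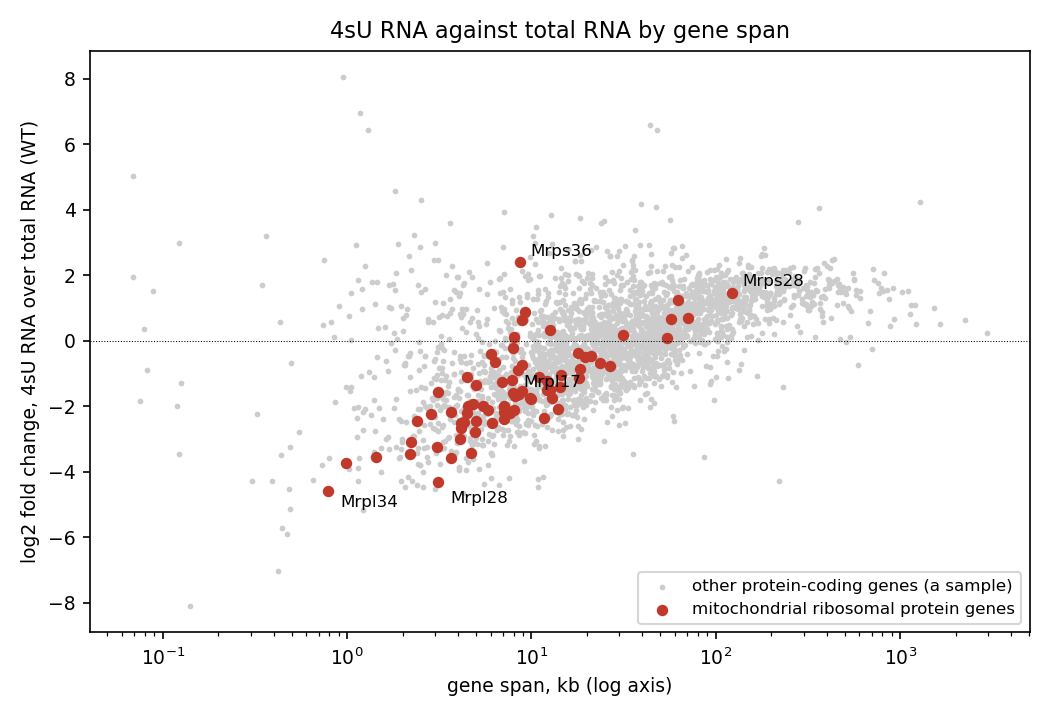
Log2 fold change, WT 4sU RNA over WT total RNA, against gene span in kb on a log axis. Red points are the mitochondrial ribosomal protein genes and grey points a sample of the other genes tested. The grey genes were not limited to protein-coding ones, although the legend names them so. The members rise with span, from -4.58 for Mrpl34 at the short end to 1.47 for Mrps28 at the long end. Mrps36 stands above them at 2.41.

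Related genes were counted in the same contrast, where 33% of all genes were lower and 30.4% higher. The 5 ribosomal proteins with other symbols had a median of -2.80, with 4 lower, among them Aurkaip1 (-4.13), Chchd1 (-2.82) and Gadd45gip1 (-2.80). Of 24 assembly factors 17 were lower and 3 higher, with Ddx28, an RNA helicase, at -3.02, Mpv17l2 at -2.92 and the GTPase Eral1 at -1.99. Of 16 aminoacyl-tRNA synthetases 9 were lower and 4 higher, with Vars2 at -2.32, Aars2 at -2.03 and Fars2 at 1.82. Of 14 genes of mitochondrial DNA expression 7 were lower and 3 higher, with the mitochondrial RNA polymerase Polrmt at -2.94, Slirp at -1.69 and the DNA polymerase Polg at -1.63. Of 11 translation factors 3 were lower and 2 higher, with the elongation factors Tsfm and Tufm at -1.62 each and the release factor Mtrf1l at 1.22. Of 10 nuclear regulators 3 were lower and 4 higher, with Esrra at -1.51, Hcfc1 at -1.16 and Nrf1 at 1.69. Cytosolic ribosomal protein genes had a median of -0.69, with 38 lower and 28 higher, beside 59 and 6 of 74 in the mitochondrial family.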

How the data were processed

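Raw counts per mouse gene of 16 libraries (8 groups of 2, in 3 sequencing projects) and raw counts per spike-in gene were deposited by the authors, with their own log2 fold changes and adjusted p-values. The submitters' processing notes name STAR 2.5.3a and Bowtie2 2.2.8 as aligners, HTSeq 0.6.1p1 as counter, and cutadapt 1.10, bcl2fastq 2.17.1.14 and DESeq2 1.16.1 besides, with mm10 for mouse. The strand setting of counting is not given in the sources used here. The spike-in cells were Drosophila S2 in project 1 and Schizosaccharomyces pombe in projects 2 and 3, per the labels. The transcript length per gene is the median given in the deposited tables.

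Each project's counts were fitted over all genes with edgeR 4.0.16 in R 4.3.3 (TMM scaling, filterByExpr with a minimum count of 10, robust quasi-likelihood test), with Benjamini-Hochberg adjustment over all genes tested and a threshold of 0.05. WT 4sU and total RNA were fitted alone. Differences between effects came from a joint fit of the 14 4sU libraries. Summed levels were compared by exact permutation. The tests were checked on simulated counts. Alternatives were spike-in scaling, DESeq2 1.42.0 and its size factors, no filter, a minimum of 50 counts, the joint fit, leaving out each library and the replicate block. All pairs of effects, members without exon overlap and members by span were added after the data were seen. Gene spans are from the deposited tables, strands, exons and overlaps from GENCODE M21, and promoters from RefSeq. The GENCODE span was the same for 69 of the 74 members. WT replicates 1 and 2 are the same lines in 4sU and total RNA, per the labels, and their deviations correlated at 0.489 across 14494 genes. The members and lists were chosen with earlier results of these data known. Named were the members called with the largest changes, the 3 with the smallest p where fewer than 3 were called, the 3 highest and lowest levels, 6 genes by name, and up to 3 called genes per other list. Log2 CPM compared between libraries used an offset of 0.5. Sox2, Sox1 and the Saccharomyces cerevisiae spike-in were not analysed here.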

Additional observations from a re-analysis of the deposited data

Results flagged for a closer look

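Effects on 4 genes differed between mutants in at least 1 test of the difference itself, with edgeR and adjustment over all genes. For Mrpl17 the AID-Tada3 effect minus the AID-Yeats2 effect was 0.86 and the AID-Yeats2 effect minus the Supt7l-/- effect was -0.78 in the joint fit, and the difference was -0.77 within project 2. For Mrpl30 the AID-Yeats2 minus Supt7l-/- difference was 0.47 in the joint fit and 0.47 within project 2, and for Mrpl39 it was 0.36 and 0.37. For Mrps16 it was -0.63 within project 2 (adjusted p 0.0367 by edgeR) and -0.63 in the joint fit, where it was not called (adjusted p 0.0706 by edgeR). The joint comparison of AID-Tada3 with AID-Yeats2 spans 2 projects, each mutant against its own WT libraries. Among all genes, 1.43% differed between the AID-Tada3 and AID-Yeats2 effects and 10.3% between the AID-Yeats2 and Supt7l-/- effects.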

How the results depend on the processing

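Mrpl17 in AID-Yeats2 cells was called under every alternative tried, at adjusted p of 2.05e-08 to 0.0239 by edgeR or DESeq2. Spike-in scaling gave 14 members lower in AID-Yeats2, 12 in AID-Zzz3, and 1 lower and 0 higher in AID-Yeats2 against Supt7l-/- cells. Its medians were -0.12 (AID-Tada3), -0.517 (AID-Yeats2), -0.4 (Supt7l-/-), -0.333 (AID-Zzz3), -0.099 (AID-Yeats2 against Supt7l-/-) and -0.148 (AID-Yeats2 minus AID-Zzz3 effects). In AID-Zzz3 cells 1 member was called lower with no filter and 1 in the joint fit, Mrpl17 in both. A minimum of 50 counts gave a median of 0.021 in AID-Yeats2 cells. Leaving out each library gave 0 to 1 members higher and medians of -0.024 to 0.105 in AID-Tada3, 1 to 3 lower, 0 to 1 higher and -0.048 to 0.002 in AID-Yeats2, 0 to 1 lower and -0.048 to 0 in Supt7l-/-, and 0 to 1 lower, 0 to 1 higher and -0.028 to 0.071 in AID-Zzz3 cells. It gave 1 lower (1 to 1), 0 to 1 higher and -0.019 to 0.058 in AID-Yeats2 against Supt7l-/- cells, -0.051 to 0.004 for AID-Yeats2 minus AID-Zzz3, and -1.815 to -1.628 in 4sU against total RNA. Libraries whose loss moved these counts were WT replicate 2 of project 1 (1 higher in AID-Tada3), WT replicates 1 and 2 of project 2 (3 lower each, and 1 higher without replicate 2, in AID-Yeats2, and 1 lower in Supt7l-/- without replicate 1), WT replicate 2 of project 3 (1 lower and 1 higher in AID-Zzz3), and each of the 4 AID-Yeats2 and Supt7l-/- clones in their comparison. The replicate block gave 62 members lower and 7 higher, with a median of -1.649, and called Mrps18a.

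Some uncalled values changed sign. Spike-in scaling moved the medians of all genes by -0.16 to -0.5 in the 4 mutants, and under it Mrpl12 was 0 in AID-Tada3 cells; Mrpl51 was -0.06, Mrps18c -0.14 and Mrps30 -0.44 in AID-Yeats2 cells. Mrps18c was -0.36, Mrps30 -0.27 and Mrps36 -0.21 in Supt7l-/- cells, and Mrps18a -0.12, Mrps18c -0.15, Mrps30 -0.29 and Mrps36 -0.3 in AID-Zzz3 cells. With at least 50 counts Mrpl12 was 0.01 in AID-Yeats2 and 0.01 in AID-Zzz3 cells. Without 1 library in turn, where the cause was not tested, Mrps18a ran from -0.11 to 0.1 and Mrps18c from -0.35 to 0.15 in AID-Tada3 cells. In AID-Yeats2 cells Mrps18a ran from -0.17 to 0.03, Mrpl12 from -0.2 to 0.16 and Mrps30 from -0.04 to 0.18. In Supt7l-/- cells Mrps18a ran from -0.11 to 0.01, Mrps18b from -0.17 to 0, Mrps18c from -0.13 to 0.16, Mrpl12 from -0.22 to 0.01, Mrps30 from 0 to 0.22 and Mrps36 from -0.15 to 0.36. In AID-Zzz3 cells Mrpl12 ran from -0.11 to 0.07, Mrps30 from 0 to 0.15 and Mrps36 from -0.33 to 0.32. Leaving out a library leaves 1 sample in its group, assumed to vary like the others. With 2 lines a group, small changes of low genes were not detectable.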
